A study of Mus musculus with 6 samples.

Results

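The cytosolic ribosomal protein genes encode the proteins of the ribosome that works outside mitochondria, named Rpl for the large and Rps for the small subunit. Members were taken by name from the platform annotation, as symbols that begin with Rpl or Rps and a number, leaving out the Rps6k kinases and pseudogene names. This gave 61 genes, 35 named Rpl and 26 named Rps, of 19057 genes with a named probe, and they carried 89 probes. The same rule fits 85 protein-coding names in the current annotation, and 60 of them had a named probe. The rule also took in 3 names that are not ordinary subunit genes, namely Rps19bp1, a binding partner of the Rps19 protein, Rps23rg1, a retrogene, and Rps4l, which the annotation lists as a transcribed pseudogene.

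By the authors' description, RNA of primary myoblasts, the muscle precursor cells grown from muscle tissue, was measured on 6 Illumina Mouse WG-6 V2.0 bead arrays. There were 3 arrays labelled Rev-/-, from mice with a global deletion of Rev-erbα (gene Nr1d1), a circadian repressor that binds heme, and 3 labelled WT. Both groups carry the labels C57BL/6, male and 6 weeks of age. For the isolation of myoblasts the authors' methods give a younger age than the labels, and an expansion over 6 passages. Cells of both were isolated from hind limb muscle with pre-plating to deplete fibroblasts, and were grown on collagen in F-10 medium that held 20% serum and, at 5 ng/ml, the growth factor bFGF, which keeps myoblasts dividing. The sources call the samples independent without tying arrays to animals, so every p-value measures the spread between these arrays only.

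A ribosome holds a single copy of nearly all of its proteins, and cells make these proteins in step with one another and with ribosomal RNA. In mammals their mRNAs begin with a C followed by an unbroken run of pyrimidines (C and T in DNA letters), the terminal oligopyrimidine or TOP motif, through which the kinase mTOR and the RNA-binding protein Larp1 set how well they are translated. Striated muscle is known for a paralog, Rpl3l, that takes the place of Rpl3 in the ribosomes of mature fibres. The comparison asked whether the mRNA of these genes, their balance between subunits and the paralogs used differed with the loss of Rev-erbα.

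Stretches around the annotated start are shown for 7 members whose values are described further on, since a TOP motif, where a gene has one, lies there. Each is 30 bases of RefSeq sequence on build GRCm38.p6, 5′ to 3′, and base 16 is the first transcribed base. Capitals mark runs of 5 or more pyrimidines.
Rpl28: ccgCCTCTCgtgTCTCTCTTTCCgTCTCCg
Rps6: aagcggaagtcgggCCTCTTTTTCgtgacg
Rpl35: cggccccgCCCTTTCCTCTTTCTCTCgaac
Rps10: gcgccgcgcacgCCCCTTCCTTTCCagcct
Rps24: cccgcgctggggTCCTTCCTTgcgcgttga
Rpl36al: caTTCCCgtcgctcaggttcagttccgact
Rpl3l: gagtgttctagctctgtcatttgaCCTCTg
They lie at chr7:4792950-4792979 on the plus strand for Rpl28, chr4:86857353-86857382 on the minus strand for Rps6, chr2:39005117-39005146 on the minus strand for Rpl35 and chr17:27635230-27635259 on the minus strand for Rps10. Those of Rps24 at chr14:24490663-24490692 and Rpl3l at chr17:24727811-24727840 are on the plus strand, and that of Rpl36al at chr12:69184053-69184082 is on the minus strand. In Rpl28, Rps6, Rpl35 and Rps10 the first transcribed base was a C followed by at least 4 pyrimidines, in runs that reached 18 bases in Rpl35. The first base was a T within a run of 9 pyrimidines in Rps24, and a G in Rpl36al and in Rpl3l, whose longest run had 5 bases.

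Of the 61 members 51 had a start in the RefSeq table, with 61 starts among them. A C followed by at least 4 pyrimidines stood at 13.1% of these starts, against 2.51% of all 32851 starts in the table. A set of 3 motifs reads CTTTCC for the first, CTTTTC for the next and CCTTTC for the last. These can overlap one another and the run at the start. On the strand that reads as the transcript, at least 1 of them lay within 15 bases of 18% of members' starts. The share of all starts was 3.21%. On the opposite strand the shares were 1.64% and 2.84%. Annotated starts can differ from the starts used in these samples, so these shares describe the annotation. The 8 genes with a C and pyrimidines at the start were Rpl14, Rpl28, Rpl35, Rpl38, Rps10, Rps15a, Rps21 and Rps6.

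Facts of the whole series bear on every value. Nr1d1, the deleted gene, had normalized log2 signals of 7.01, 6.51 and 7.14 on the Rev-/- arrays and 6.59, 6.54 and 7.21 on the WT arrays, so its probe did not separate the labels. Array Rev-/- 1 differed most from the other arrays, its correlations with them averaging 0.983 where those of the rest averaged 0.991 to 0.992. There Bglap, which encodes osteocalcin of bone, was at 11.08 against 6.61 to 7.10 elsewhere, and Xist, the noncoding RNA that silences an X chromosome in females, was at 6.62 against 9.72 to 10.75, although all samples are labelled male. Eif2s3y, a gene of the Y chromosome, was at 9.08, 8.26 and 6.82 on Rev-/- arrays 1 to 3 and 6.72, 8.39 and 8.56 on WT arrays 1 to 3. Xist and Eif2s3y thus differed within labels, and together they followed the male label on array Rev-/- 1 alone. Pax7 and Myf5, defining genes of satellite cells and young myoblasts, did not exceed background on any of the arrays. Myod1, the myogenic determination factor, averaged 7.87 ± 0.035 on Rev-/- arrays and 7.99 ± 0.072 on WT arrays (SD, n = 3 each), and Ckm, the creatine kinase of mature fibres, averaged 14.00 ± 0.12 on Rev-/- arrays and 14.09 ± 0.020 on WT arrays (SD, n = 3 each). Ckm was thus far brighter than Myod1, although the authors describe dividing myoblasts. Which cells the RNA came from was not tested.

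Ribosomal protein genes did not pass the test in these arrays. Of the 61 members 54 were kept, 31 of the large and 23 of the small subunit, because a probe lay above background on at least 3 of the 6 arrays, and all 54 did so on all 6. A gene was called where limma's adjusted p did not exceed 0.05 and the fold was 1.5 or more, and this held for 0 of 54 members, against 0% of all 11624 genes tested. The lowest adjusted p among members was 0.997 by limma, and all 54 differed by less than 1.5-fold between labels. At an unadjusted p of at most 0.05, 3 of 54 members passed, against 3.17% of all genes. Rpl28 was higher (1.23% of all genes) and Rps24 and Rps27l were lower (1.94% of all genes) on Rev-/- arrays. The share of members was near that of all genes in each direction. This unadjusted count changed when single arrays were left out, being 0 without Rev-/- 1, 8 without Rev-/- 2, 1 without WT 2 and 5 without WT 3. Over all genes 433 of 11316 passed without Rev-/- 1 and 723 of 11404 without Rev-/- 2. Without WT 2 the count over all genes was 203 of 11289, and without WT 3 it was 363 of 11317.

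The 7 members that were not kept had dim probes. Rps20, Rpl17, Rpl39l and Rps23 were above background on 0 arrays, Rpl6 on 1, and Rpl14 and Rps23rg1 on 2. Their signals lay between 6.54 and 6.75 on every array, and the background limits, set on the deposited values, were 6.65 to 6.77. Rpl39l is mainly a testis paralog of Rpl39, whereas Rpl6, Rpl14, Rpl17, Rps20 and Rps23 encode core proteins of the ribosome. A dim probe does not bound the mRNA of its gene. Rpl23 had a probe above background on 0 arrays, averaging 6.63 on Rev-/- and 6.59 on WT arrays. Its brightest probe averaged 14.38 on both. The mRNA levels of the 7 members are therefore not known from these arrays. The kept members averaged 6.87 to 14.39 on the log2 scale, a signal that also depends on the probe, and 44 of the 54 lay above 10.23, the 90th percentile of all genes tested.

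**Figure D1:**
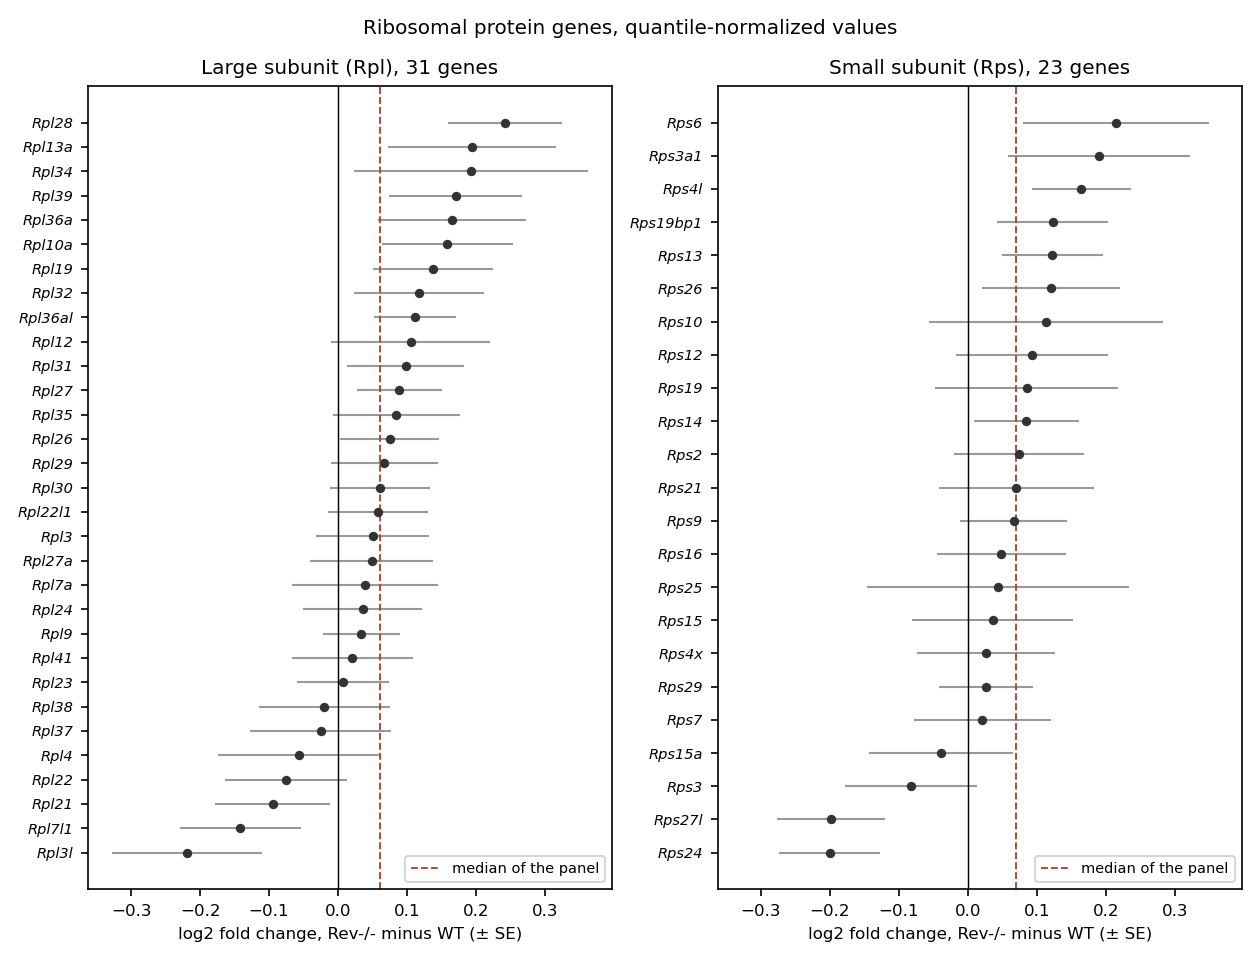
Log2 fold change of each of the 54 kept ribosomal protein genes, Rev-/- minus WT, with its standard error from limma (points and bars), for the large subunit (31 genes) and the small subunit (23 genes), after quantile normalization. Most points lie above 0 under this scaling, 43 of 54 against 3 of 54 with array medians aligned and 0 of 54 with no normalization, and Rpl3l, Rps24 and Rps27l stand lowest.

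The direction of the family as a whole depended on how the arrays were scaled. After quantile normalization 43 of 54 members (79.6%) had a log2 fold change above 0, against 47.8% of all genes, but with array medians aligned the count was 3 of 54 and with no normalization 0 of 54. The members' median was 0.067 after quantile normalization, against -0.0050 over all genes. With array medians aligned the members' median was -0.14 and that of all genes -0.11, and with no normalization they were -0.19 and -0.15, so the members lay above all genes under the first scaling and below them under the other 2. Cyclic loess, which also removes differences that depend on brightness, gave 45 of 54 above 0 and a median of 0.12. The members are bright, and other bright genes also moved with the scaling. The 1119 other genes above the 90th percentile of signal had a median of -0.026 after quantile normalization, -0.28 with array medians aligned and -0.33 with no normalization, and the members' median was above theirs under all 17 settings tried, by 0.052 to 0.14. Those settings include the main run and some that alter only the test, where these medians cannot change. The other genes, all above 10.23, were not matched in brightness to the members, whose median signal was 12.69. This comparison was added after seeing the data.

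**Figure D2:**
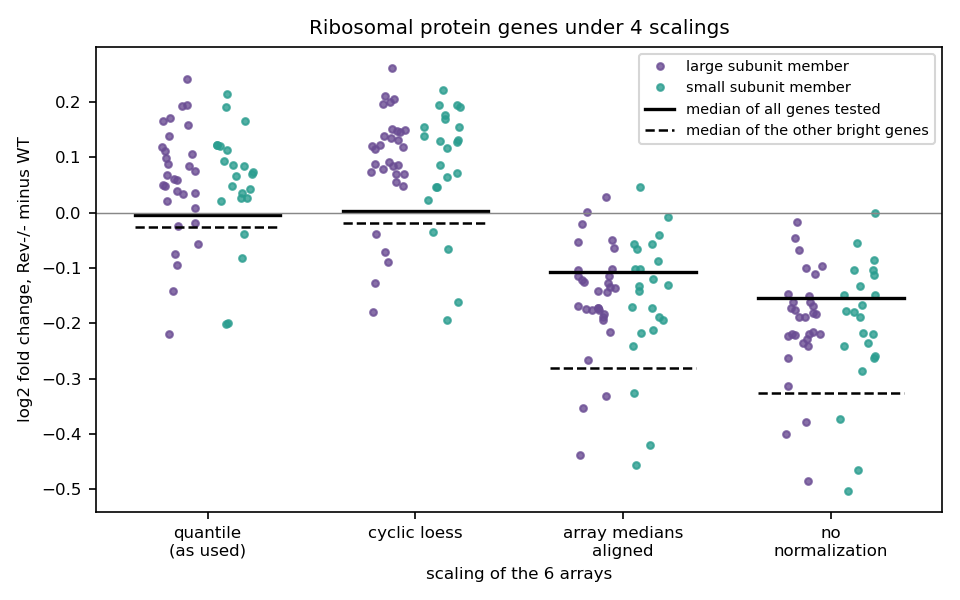
Log2 fold change, Rev-/- minus WT, of the 54 ribosomal protein genes (points, by subunit) under 4 ways of scaling the arrays, with the median of all genes tested (solid line) and of the 1119 other genes above the 90th percentile of signal (dashed line). The points lie mostly above 0 with quantile normalization (43 of 54) and cyclic loess (45 of 54) and almost wholly below it with array medians aligned (3 of 54 above) and with no normalization (0 of 54 above).

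The 2 subunits did not part from each other. The median log2 fold change was 0.061 over the 31 large subunit genes and 0.070 over the 23 small subunit genes, a difference of -0.0098. Above 0 were 24 of 31 large subunit genes (77.4%) and 19 of 23 small subunit genes (82.6%) after quantile normalization, a direction that turned with array medians aligned and with no normalization as given above. The difference between the subunits was 0.036 without array Rev-/- 1 and 0.052 without array WT 2, so its sign rested on single arrays.

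Arrays of one label differed from each other by more than the labels did. The median distance of the members from their own means was 0.072, -0.025 and 0.026 on the log2 scale on Rev-/- arrays 1 to 3, and -0.038, -0.11 and 0.053 on WT arrays 1 to 3. The groups overlapped, with Rev-/- 1 highest, WT 3 second and WT 2 lowest. Of the 54 members 41, 20 and 36 lay above their own mean on Rev-/- arrays 1 to 3, against 19, 12 and 39 on WT arrays 1 to 3. The highest value of a member fell on array Rev-/- 1 for 19 genes and the lowest on array WT 2 for 21 genes. Without array Rev-/- 1 the members' median was 0.047 with 37 of 54 above 0, and without array WT 2 it was 0.048 with 34 of 54 above 0, both after quantile normalization.

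**Figure D3:**
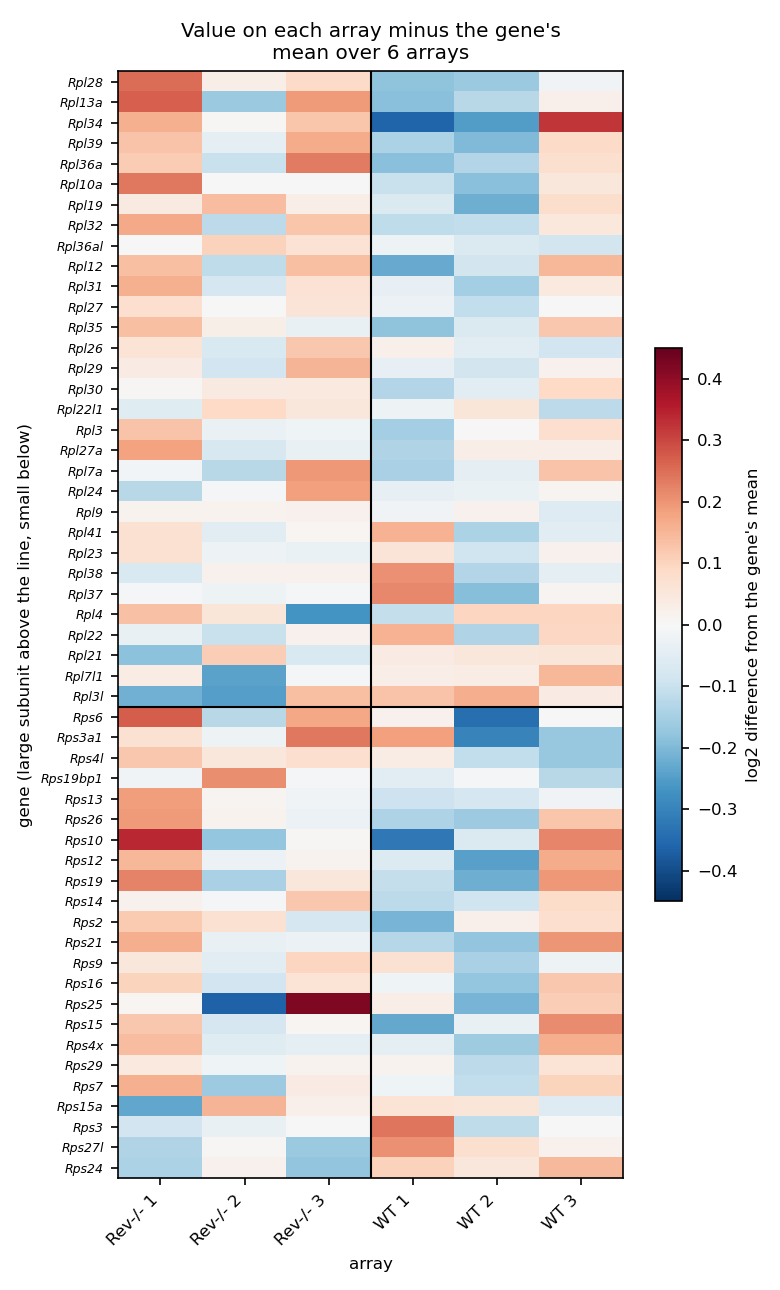
Value of each of the 54 ribosomal protein genes on each array minus its mean over the 6 arrays, in log2 units (colour), with large subunit genes above the horizontal line and small subunit genes below it, each ordered by fold change after quantile normalization. Columns differ as whole arrays under this scaling, with 41 members above their mean on array Rev-/- 1 and 12 on array WT 2.

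Markers of other cells moved with some of the same arrays. The median distance from the mean of 11 neutrophil genes was 2.60, -0.96 and -0.19 on Rev-/- arrays 1 to 3, against -0.82, -0.091 and -0.36 on WT arrays 1 to 3. That of 6 bone genes was 3.26 on array Rev-/- 1 and between -0.78 and -0.45 on the others. A list of 11 leukocyte genes was at 0.13, -0.38 and 0.44 on Rev-/- arrays and -0.35, -0.26 and 0.27 on WT arrays, and the 3 arrays where it was below 0 were also the 3 where the ribosomal protein genes were below 0. Cell division genes, 19 in number, were at 0.41 on array Rev-/- 1 and between -0.11 and 0.015 on the others. The list whose arrays stood in the same order as those of the ribosomal protein genes was that of 10 endothelial genes, at 0.11, -0.047 and 0.074 on Rev-/- arrays and -0.051, -0.077 and 0.081 on WT arrays. The 6 tested red cell genes of 7 were at 0.76, -0.087 and -0.12 on Rev-/- arrays and -0.26, 0.045 and -0.25 on WT arrays, and Hba-a1, a haemoglobin chain, had a signal of 14.21 to 14.60 over all arrays. For 9 fibroblast genes the range was -0.10 to 0.068, and for 8 tested myoblast genes of 10 it was -0.17, on array Rev-/- 1, to 0.094. Lists of fast fibre genes ranged from -0.047 to 0.16 over all arrays and of slow fibre genes from -0.34 to 0.35. The part of these cells in the ribosomal protein values was not tested, and in such samples fewer cells of a type and less RNA per cell cannot be told apart.

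Rpl3l, the striated muscle paralog of Rpl3, had the lowest fold change of the 54 members. Its normalized log2 signal was 12.87, 12.84 and 13.22 on the Rev-/- arrays and 13.22, 13.25 and 13.12 on the WT arrays. Rev-/- 1 and 2 lay below every WT array, and Rev-/- 3 lay within the WT range, so the groups overlapped. The means were 12.98 ± 0.21 on Rev-/- arrays and 13.20 ± 0.065 on WT arrays (SD, n = 3 each), a log2 fold change of -0.22 ± 0.11 (SE). The exact permutation test gave p = 0.3, 2-sided, where 3 arrays against 3 cannot give less than 0.1, and limma gave an adjusted p of 0.997.

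Rpl3, the general form, differed less between labels. Its signal was 13.43, 13.27 and 13.28 on the Rev-/- arrays and 13.15, 13.30 and 13.38 on the WT arrays, with overlapping groups and a log2 fold change of 0.050 ± 0.082 (SE). Set against each other within each array, the change of Rpl3l minus that of Rpl3 was -0.27 on the log2 scale, a difference of changes that array scaling does not touch where it shifts all probes alike, and the exact permutation p was 0.2, 2-sided. The fold change of Rpl3l was negative under all 16 alternatives, from -0.49 to -0.15 (-0.34 without Rev-/- 3), while that of Rpl3 was -0.17 with array medians aligned and -0.22 with no normalization. Under those scalings the median of all genes was below 0 too (-0.11 and -0.15), so a negative sign was not at risk there. Rpl3l lies beside Rps2 on chromosome 17, and Rps2, a small subunit protein near the entry of the mRNA, had a log2 fold change of 0.074 ± 0.094 (SE).

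The next lowest members after Rpl3l were Rps24 and Rps27l of the small subunit. Rps24, a small subunit protein whose gene is mutated in human Diamond-Blackfan anaemia, had 13.22, 13.38 and 13.18 on the Rev-/- arrays and 13.46, 13.41 and 13.51 on the WT arrays. Every Rev-/- array lay below every WT array, by a margin that was narrow between Rev-/- 2 and WT 2. The log2 fold change was -0.20 ± 0.073 (SE), the exact permutation p was 0.1, the smallest possible, and limma's adjusted p was 0.997. A pair of further probes of Rps24, dimmer ones, gave log2 fold changes of -0.037 and -0.046, so the size of the difference was not shared between its probes.

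Rps27l, a paralog of Rps27 that p53 induces in human cells, had 11.72, 11.86 and 11.69 on the Rev-/- arrays and 12.06, 11.93 and 11.87 on the WT arrays. Here too the groups did not overlap, and the nearest arrays were Rev-/- 2 and WT 3. The log2 fold change was -0.20 ± 0.079 (SE), with an exact permutation p of 0.1, 2-sided. These were the 2 members of 54 whose Rev-/- arrays all lay below all WT arrays, against 4.57% of all genes. The members without overlap in either direction numbered 5, but 15 without Rev-/- 2, 9 without WT 2 and 18 without WT 3, where fewer arrays have to be parted and the share of all genes was 21.5%, 14.5% and 18.2% in place of 8.1%. Rps24 and Rps27l kept a negative sign under all 16 alternatives, Rps24 from -0.47 to -0.094 and Rps27l from -0.50 to -0.15. With array medians aligned and with no normalization the median of all genes was also below 0, so a negative sign was not at risk there. Several further alternatives changed only the filter or the test and left the fold changes as they were.

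A core gene, a paralog and a pseudogene lay higher on all Rev-/- arrays after quantile normalization. Rpl28, a large subunit protein, had 13.07, 12.85 and 12.90 on the Rev-/- arrays and 12.64, 12.65 and 12.80 on the WT arrays, a log2 fold change of 0.24 ± 0.083 (SE), the highest of the 54. Rpl36al, a close paralog of Rpl36a, had 12.48, 12.58 and 12.54 on the Rev-/- arrays and 12.45, 12.41 and 12.39 on the WT arrays, a fold change of 0.11 ± 0.060 on the log2 scale. Rps4l had 8.53, 8.46 and 8.48 on the Rev-/- arrays and 8.44, 8.30 and 8.24 on the WT arrays, at 0.16 ± 0.072. These 3 of 54 members, the ones above WT without overlap, compare with 3.54% of all genes, and the exact permutation p of each was 0.1, the smallest possible.

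The signs of these 3 did not hold under every scaling. With no normalization the log2 fold changes were -0.045 for Rpl28, -0.19 for Rpl36al and -0.054 for Rps4l, and with array medians aligned they were -0.14 for Rpl36al and -0.0076 for Rps4l. A second, dimmer probe of Rpl28 had a log2 fold change of -0.078 ± 0.071 (SE), opposite to the first. Over the 16 members with several kept probes, 15 of 22 further probes (68.18%) had the sign of the brightest probe, against 59.93% over all genes tested with several probes.

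**Figure D4:**
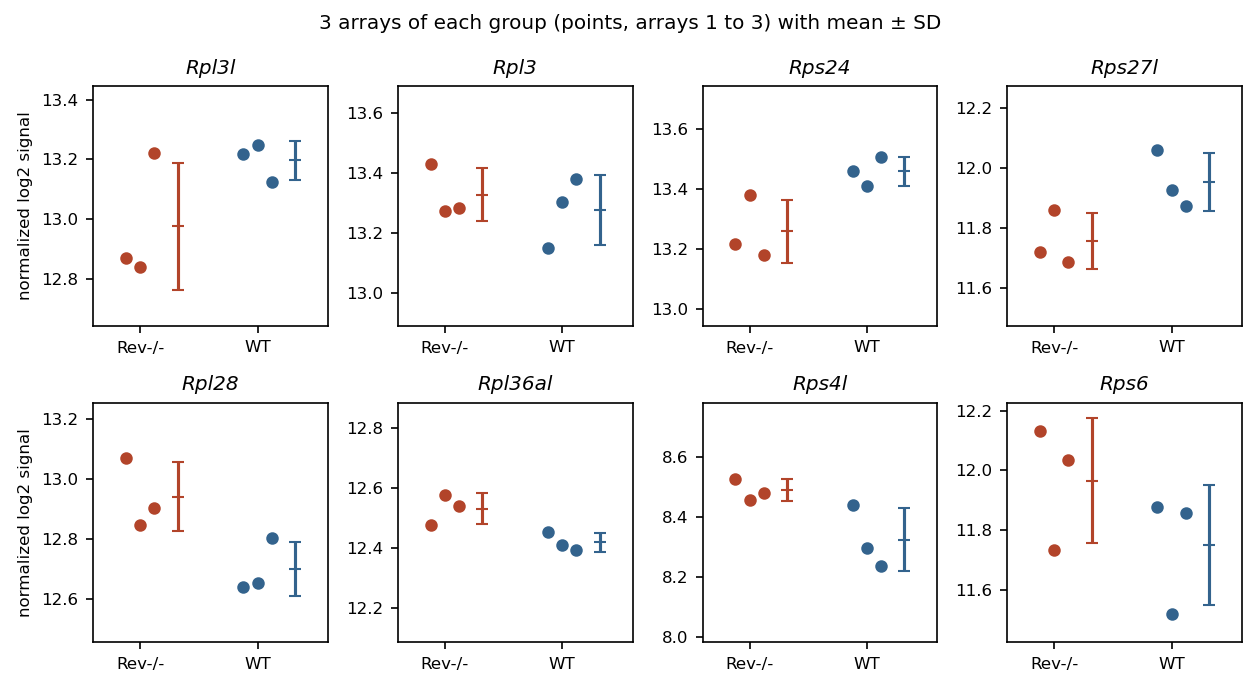
Normalized log2 signal of 8 ribosomal protein genes on each array (points, arrays 1 to 3 from left to right in each group) with the mean ± SD of the 3 arrays beside them, Rev-/- left and WT right, each panel spanning 0.8 log2 units. Rps24 and Rps27l lie below WT and Rpl28, Rpl36al and Rps4l above it on all Rev-/- arrays after quantile normalization, the upper 3 with signs that turned when the arrays were not normalized, and Rpl3l, Rpl3 and Rps6 overlap.

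Members known for roles outside the bare ribosome varied with the arrays. Rps6, the target of the S6 kinases, had 12.13, 11.73 and 12.03 on the Rev-/- arrays and 11.88, 11.52 and 11.86 on the WT arrays. Replicate 2 was the lowest array in both groups, and the log2 fold change of 0.21 ± 0.13 (SE) had an exact permutation p of 0.3. It rested on single arrays, being 0.13 without Rev-/- 1, 0.33 without Rev-/- 2 and 0.099 without WT 2. Rpl13a, which in human cells is released from the ribosome to silence inflammatory mRNAs, had 9.32, 8.89 and 9.25 on the Rev-/- arrays and 8.86, 8.93 and 9.08 on the WT arrays, with overlapping groups and a log2 fold change of 0.19 ± 0.12 (SE), which was 0.11 without Rev-/- 1 and 0.33 without Rev-/- 2. Rpl38, which in mouse embryos helps translate Hox mRNAs, had 13.85, 13.94 and 13.94 on the Rev-/- arrays and 14.12, 13.79 and 13.87 on the WT arrays, a difference of -0.020 ± 0.094 on the log2 scale.

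Rps19, the gene most often mutated in human Diamond-Blackfan anaemia, had 13.53, 13.16 and 13.35 on the Rev-/- arrays and 13.20, 13.08 and 13.50 on the WT arrays. Rps14, whose loss causes the anaemia of human 5q deletions, had a log2 fold change of 0.085 ± 0.077 (SE), and Rps26 one of 0.12 ± 0.10. None of these groups was free of overlap. Of 11 tested genes mutated in human Diamond-Blackfan anaemia, 9 were above 0 after quantile normalization with a median log2 fold change of 0.085, and Rps24 alone passed an unadjusted p of 0.05. The 7 tested genes listed for proteins in the exit tunnel of the nascent chain or around its opening had a median of 0.085 too, with 5 above 0, among them Rpl39 at 0.17 ± 0.096.

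The paralogs did not move as a class. Rpl22l1, the paralog of Rpl22, had 6.82, 6.96 and 6.92 on the Rev-/- arrays and 6.85, 6.92 and 6.75 on the WT arrays, close to the background limit. Rpl22 itself had a log2 fold change of -0.075 ± 0.089 (SE), and Rpl7l1, a paralog of Rpl7, one of -0.14 ± 0.088. Of 11 tested paralogs and genes with close copies, 8 had a fold change above 0 after quantile normalization, with a median of 0.039 on the log2 scale. Rps4x at 0.027, Rpl7a at 0.039 and Rpl9 at 0.034 lay near 0, and all 3 were negative with array medians aligned. Probes of genes with many processed copies can also bind transcripts of those copies.

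The most variable members differed between arrays of one label. Rps25, a protein of the small subunit head, had 10.96, 10.58 and 11.37 on the Rev-/- arrays and 10.98, 10.74 and 11.06 on the WT arrays, so the widest gap of all lay between Rev-/- 2 and Rev-/- 3. Rpl34 had 12.30, 12.14 and 12.26 on the Rev-/- arrays and 11.78, 11.89 and 12.46 on the WT arrays, where WT 3 was the highest of all 6, and its log2 fold change of 0.19 ± 0.17 (SE) was 0.059 without WT 1, 0.12 without WT 2 and 0.41 without WT 3. Rps10 had 12.22, 11.71 and 11.89 on the Rev-/- arrays and 11.56, 11.82 and 12.11 on the WT arrays. In each of these 3 genes the WT arrays alone ranged more widely than the means of the labels differed. Over the 54 members the median SD over the 6 arrays was 0.13, against 0.11 over all genes.

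The remaining large rises and falls were smaller than 0.2 on the log2 scale and overlapped. Rps3a1, a small subunit protein, had a log2 fold change of 0.19 ± 0.13 (SE) after quantile normalization, with the highest Rev-/- array at 10.21 and the highest WT array at 10.16, and it was 0.33 without WT 1, 0.088 without WT 2 and 0.12 without Rev-/- 3. Rpl21 at -0.095 ± 0.083 and Rps3 at -0.082 ± 0.096 closed the list of 6 lowest members. Rpl21 stayed negative under all 16 alternatives, from -0.24 to -0.027, and Rps3, a small subunit protein that also takes part in DNA repair, reached 0.018 when a single array was left out. As said for Rps24, the scalings that lowered all genes put no negative sign at risk.

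Lists of other parts of the translation machinery were set beside the cytosolic ribosomal proteins, and differences between lists were not tested. The mitochondrial ribosome has proteins of its own, made from separate nuclear genes, and of 72 tested 20 had a log2 fold change above 0, with a median of -0.049. Mrpl3 was higher and Mrps15 and Mrps2 were lower on Rev-/- arrays at an unadjusted p of at most 0.05, with log2 fold changes of 0.17, -0.29 and -0.16. These are 1 of 72 higher and 2 of 72 lower, against 1.23% and 1.94% of all genes. Across arrays this list was at -0.16, 0.090 and 0.012 on Rev-/- arrays 1 to 3 and 0.029, 0.057 and -0.036 on WT arrays 1 to 3, lowest on the array where the cytosolic list was highest.

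Ribosome biogenesis factors, which build the subunits in the nucleolus, had 21 of 50 above 0 and a median of -0.017. Bop1, which matures the large subunit RNA, was at -0.25 ± 0.10 and Grwd1, whose yeast counterpart is a chaperone of Rpl3, at -0.21 ± 0.080 on the log2 scale (SE). They were the 2 of 50 in that list at an unadjusted p of at most 0.05, both lower, against 1.94% of all genes. Grwd1 had 7.76, 7.79 and 7.64 on the Rev-/- arrays and 8.07, 7.86 and 7.90 on the WT arrays, without overlap. It was 1 of 3 genes of the 50 that lay lower without overlap, against 4.57% of all genes. Another 3 of the 50, namely Gar1, Rrp9 and Rpf2, lay higher without overlap, against 3.54% of all genes. Of 44 translation factors 22 were above 0 with a median of -0.00027, and of 20 genes of TOR signalling 8 were above 0 with a median of -0.046, Larp1 at -0.083 ± 0.082. Other mRNAs with a TOP motif, those of elongation factors and a few more, had 11 of 13 above 0 and a median of 0.043, beside 43 of 54 and 0.067 for the members, with Eef1d at 0.20 ± 0.087, Eef2 at 0.13 ± 0.13 and Eef1g at 0.13 ± 0.072 (SE). The stalk proteins Rplp0, Rplp1 and Rplp2, ribosomal proteins outside the naming rule, were at 0.015, -0.050 and 0.072. All of these values follow quantile normalization, and none of the genes was called.

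**Figure D5:**
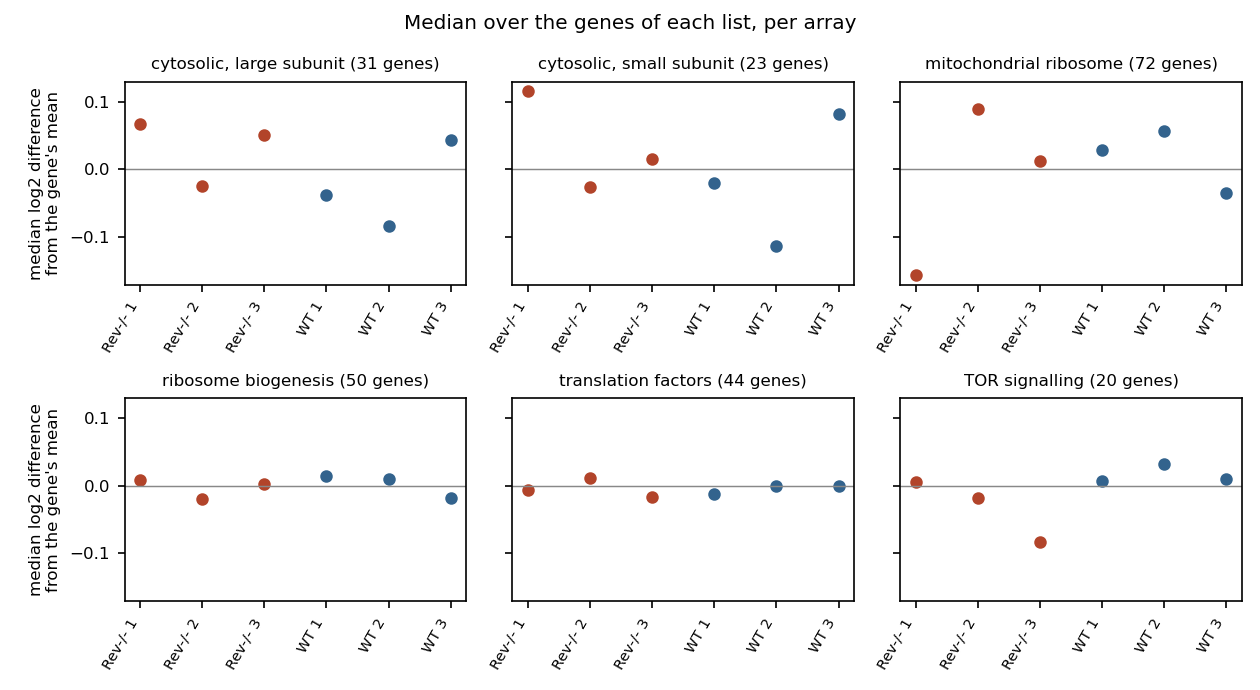
Median log2 distance of the genes of each list from their own means over the 6 arrays, per array (points), Rev-/- arrays left and WT arrays right, for both cytosolic subunits, mitochondrial ribosomal proteins, ribosome biogenesis factors, translation factors and TOR signalling, after quantile normalization. Both cytosolic subunits are highest on array Rev-/- 1 and lowest on array WT 2, and the mitochondrial list is lowest on array Rev-/- 1 at -0.16.

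Members with a C and pyrimidines at the annotated start were set beside the other members, with no test of the difference. The 7 of these genes that were tested had a median log2 fold change of 0.085, from -0.039 in Rps15a to 0.24 in Rpl28, with 5 above 0, and the 39 other tested members with a start had a median of 0.058, from -0.22 to 0.19, with 31 above 0. These are counts after quantile normalization, and with array medians aligned 3 of all 54 members were above 0. Of the 7 starts printed above, the 4 with a C and pyrimidines belong to genes at 0.24 (Rpl28), 0.21 (Rps6), 0.085 (Rpl35) and 0.11 (Rps10), and the 3 without to genes at -0.20 (Rps24), 0.11 (Rpl36al) and -0.22 (Rpl3l), a set chosen with these values known.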

How the data were processed

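The deposited values are linear bead intensities for 45281 probes on 6 arrays. The authors' methods name BeadStudio, background subtraction, quantile normalization with lumi and testing with limma, and the processing notes of the submitters list GenomeStudio beside lumi and limma, with versions not given in the sources used here. Deposited columns did not share 1 distribution (array medians 98.4 to 107). They were therefore quantile-normalized and taken to log2 without further background correction. A second table of 12 columns named by array position was not used, since nothing ties positions to samples.

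Probe names came from the platform annotation, where 34885 probes carried 1 symbol, 18 several and 10378 none. On each array background was the peak of the intensity density with its dim side mirrored, and probes above its 95th percentile on at least 3 arrays were kept (21421, of which 18133 with 1 symbol, for 11624 genes). Between 20713 and 21900 probes per array passed. Precision is limited by how few arrays there are. Each gene was represented by its brightest probe. Labels were compared with lmFit and eBayes (limma 3.58.1, R 4.3.3) over all kept probes with 1 symbol, with Benjamini-Hochberg adjustment over them. Single genes had an exact permutation test, 2-sided. The limma fit was tested on simulated data, and the exact permutation test on an example with a known answer. The scaling, the background limit and the choice of probes were not tested in this way.

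Members and lists were chosen with earlier results of these data known. Genes named were Rpl3 and Rpl3l, paralogs with their parent genes, members with known further roles, the 6 largest rises, the 6 largest falls and the 6 largest SDs among kept members, and members not kept. Others were named after their values were seen (Rps2, Rpl35, and examples in other lists). Alternatives were other scalings, normexp with an offset of 16, other filters, weights per array, a robust prior with an intensity trend, a block for the replicate number, averaging a gene's probes and leaving out each array. Counts above 0 and the comparison with other bright genes were added after seeing the data.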

Additional observations from a re-analysis of the deposited data

How the results depend on the processing

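No ribosomal protein gene was called under any of the 17 alternatives run for that count, and limma at an unadjusted p of at most 0.05 gave 3. That unadjusted count was 10 with array medians aligned, where 2239 of all 11624 genes passed, and 12 with no normalization, where 2688 passed. It was 0 with normexp (315 of 11624 genes), 5 with no filter (761 of 19057) and 1 with an intensity trend and robust prior (317 of 11624). When single arrays were left out it was 0 to 8, where 203 to 723 of all genes passed. The count over all genes thus moved with the scaling as well. The members whose groups did not overlap numbered 5 of 54, against 8.1% of all genes. With array medians aligned they numbered 12 (23.2% of all genes), with cyclic loess 9 (8.23%) and with no normalization 17 (27.3%). When single arrays were left out, where fewer arrays have to be parted, they numbered 6 to 18, against 14.5% to 21.5% of all genes. The share of all genes thus moved with these settings too. The median log2 fold change of the members was -0.139 with array medians aligned and -0.186 with no normalization, and relative to all genes it was -0.0319 under both, with 3 and 0 members above 0. Leaving out single arrays gave medians of 0.0469 to 0.114, 34 to 43 members above 0, and a large minus small subunit difference of -0.024 to 0.0521. The cause of the change with scaling was not tested.

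Of 25 named genes 5 (Rpl3l, Rps24, Rps27l, Rpl7l1 and Rpl21) kept their sign under all 16 alternatives, and of 400 values 51 had the other sign, with 0 changed calls. All 5 were negative, and the scalings that turned most signs moved fold changes down, so keeping a negative sign says little there. With array medians aligned the log2 fold changes that turned were -0.0202 for Rpl13a, -0.174 for Rpl3, -0.0497 for Rpl34, -0.143 for Rpl36al, -0.0525 for Rpl39, -0.215 for Rpl7a, -0.142 for Rpl9, -0.133 for Rps10, -0.0867 for Rps14, -0.142 for Rps19, -0.217 for Rps25, -0.12 for Rps26, -0.0566 for Rps3a1, -0.00759 for Rps4l, -0.194 for Rps4x and -0.0397 for Rps6. With no normalization they were -0.067 for Rpl13a, -0.22 for Rpl3, -0.0964 for Rpl34, -0.189 for Rpl36al, -0.0992 for Rpl39, -0.262 for Rpl7a, -0.189 for Rpl9, -0.18 for Rps10, -0.133 for Rps14, -0.188 for Rps19, -0.263 for Rps25, -0.167 for Rps26, -0.103 for Rps3a1, -0.0543 for Rps4l, -0.241 for Rps4x, -0.0864 for Rps6, -0.0178 for Rpl22l1 and -0.0452 for Rpl28. Rpl38 was at 0.0792 with cyclic loess, 0.0161 with array weights and 0.0453 with the mean of its probes. Leaving out single arrays gave -0.015 to 0.0967 for Rpl3, -0.0924 to 0.0826 for Rpl38, -0.0482 to 0.116 for Rpl7a, -0.0263 to 0.249 for Rps10, -0.0103 to 0.206 for Rps19, -0.157 to 0.235 for Rps25, -0.162 to 0.0178 for Rps3 and -0.0484 to 0.114 for Rps4x.

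Whether the replicate numbers pair the samples could not be settled. The deviations of same-numbered arrays correlated at -0.166, 0.119 and 0.0517 for numbers 1 to 3, and no Rev-/- array correlated best with the WT array of its own number. With 3 arrays per label, each set against its own group mean, such correlations cannot exclude pairing. With the replicate block 2 members passed the unadjusted p in place of 3, and 0 were called. With 3 arrays per label the exact test cannot go below 0.1, and dim probes leave the mRNA levels of 7 members unknown.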
